A study of Mus musculus with 6 samples.

Results

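The 8 genes described here encode the proteases that activate plasminogen, their receptor, serpins related to them, and the membrane and secreted regulators of tissue factor coagulation: Plau, Plat, Plaur, Serpine2, Serpinf1, F3, Tfpi and Thbd. They were taken by gene symbol from a table of read counts for 14831 genes. All 8 had a row, 0 were absent, and all 8 passed the filter on low counts together with 14289 genes in all.

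The libraries came from immortalized mouse pancreatic fibroblasts of mixed strain, profiled by poly-A RNAseq to ask how loss of the Hedgehog effectors Gli2 and Gli3 changes gene expression in these cells. There were 3 libraries labelled WT and 3 labelled KO, the latter with the genotype Gli2-/-;Gli3-/-. Each library came from its own confluent 6-well culture in DMEM with calf serum. According to the methods, fibroblasts were grown out from the pancreas of adult mice with floxed Gli alleles, immortalized, and then infected; control cells received an eGFP adenovirus and a dsRed lentivirus, KO cells received the eGFP adenovirus and a Cre adenovirus, and infected cells were sorted by flow cytometry. Both groups thus share the floxed background, the immortalization and a sort of infected cells. The virus mixture differed with the label and cannot be told apart from the deletion. The paper also screened sorted cells for recombination, and it mixed clones in its injections to limit clonal variability. Sample titles name no clone or line, so a difference between clones cannot be told apart from the deletion either. The wells are replicates of a culture, so p-values measure the spread between wells and not between animals or independently made lines. In a bulk library, fewer cells of a type and less RNA per cell cannot be told apart.

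Plasminogen is a circulating zymogen that is cleaved to plasmin, a protease of fibrin and other matrix proteins, by urokinase (Plau) and tissue plasminogen activator (Plat). Urokinase acts largely at the cell surface, where the GPI-anchored receptor Plaur binds it, and both activators are held in check by serpins, suicide inhibitors that trap their protease in a covalent complex. Tissue factor (F3) starts clotting by binding factor VII, Tfpi blocks that complex, and thrombomodulin (Thbd) binds the thrombin that results and turns it toward activation of protein C. Fibroblasts around vessels are known carriers of tissue factor.

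Libraries labelled WT held 31728420 to 33905521 counts and libraries labelled KO 32781730 to 41035931. At this depth 3 counts correspond to 0.0720 to 0.0957 CPM, counts scaled to a common library total, below the level of every gene described in full here. The targeted genes did not fall with the label: Gli2 was higher by 1.05 and Gli3 by 1.71 on the log2 scale in libraries labelled KO (adjusted p = 8.01e-10 and 2.10e-11), with the 3 libraries labelled KO above the 3 labelled WT for both. These are sums over all exons, including any outside the removed part, so they do not check the deletion. The paper reports the loss of Gli2 and Gli3 in its fibroblast lines from qPCR and western blot. The groups are named by their labels throughout. Over all genes tested, the median log2 fold change of libraries labelled KO over libraries labelled WT was 0.00197.

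Of the 8 genes, 4 rose in the libraries labelled KO and 0 fell, under an adjusted p below 0.05 (edgeR quasi-likelihood test, Benjamini-Hochberg over all genes tested) and a change of at least 1.5-fold. By this rule 17.7% of all genes tested were called, 11.6% as higher and 6.10% as lower. The 4 were Serpinf1, Serpine2, Thbd and Plaur. Without the fold limit 6 of the 8 passed, all higher, against 58.7% of all genes in either direction and 29.9% as higher. The same 6 had every library labelled KO above every library labelled WT, which held for 32.9% of all genes, and 64.2% of genes had groups apart in either direction. The median log2 fold change of the 8 was 0.70. These shares are a description of genes chosen by name, and no test of the list was made.

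**Figure D1:**
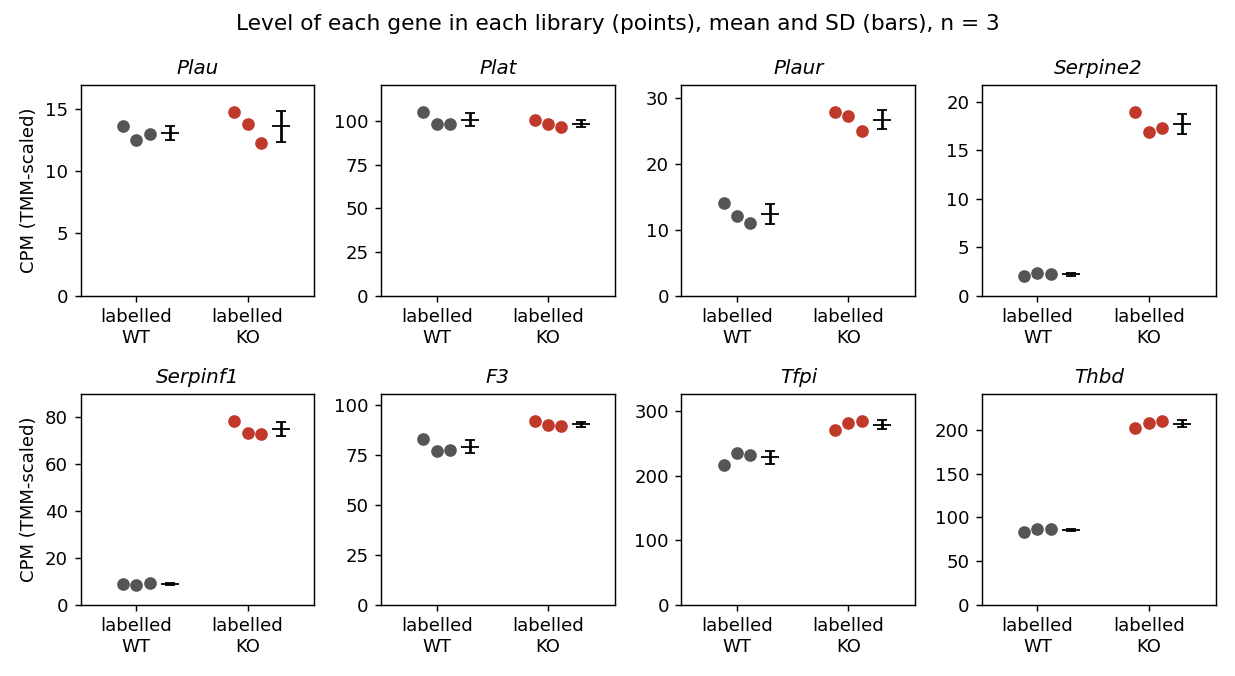
Level of each gene in CPM after TMM scaling (y axis, starting at 0, own scale for each gene) in the 3 libraries labelled WT (grey points) and the 3 labelled KO (red points), with group means and SD as bars. The groups stand apart for Plaur, Serpine2, Serpinf1, F3, Tfpi and Thbd and overlap for Plau and Plat.

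The promoters of 3 genes called higher are shown first. RefSeq windows (GRCm38.p6) matched 5 of the 8 genes, and the upstream bases are printed 5′ to 3′ on the gene's strand, leaving out exons of protein-coding transcripts, with AP-1 (TGACTCA) and GC box (GGGCGG) matches on either strand in capitals. The first 3 belong to genes that rose, and F3, which was not called, is added because it holds the same AP-1 motif as Plaur. Thbd, which also rose, had no RefSeq window, and neither did Plau and Plat. The RefSeq start of Serpine2 lies inside the gene's annotated span, so its window is upstream of an internal start and not of the whole locus.
Plaur, chr7:24462233-24462482, plus strand: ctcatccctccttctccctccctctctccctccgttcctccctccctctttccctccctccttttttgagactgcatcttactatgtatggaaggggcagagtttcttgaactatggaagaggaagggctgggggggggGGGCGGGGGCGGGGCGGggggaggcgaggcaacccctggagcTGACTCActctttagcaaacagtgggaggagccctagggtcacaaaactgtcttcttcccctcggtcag
Serpine2, chr1:79858697-79858915, minus strand: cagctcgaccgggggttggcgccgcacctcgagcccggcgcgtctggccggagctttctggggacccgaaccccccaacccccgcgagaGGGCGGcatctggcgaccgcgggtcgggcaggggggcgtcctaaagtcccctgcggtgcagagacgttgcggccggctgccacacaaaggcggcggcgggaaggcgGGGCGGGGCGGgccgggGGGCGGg
Serpinf1, chr11:75422702-75422873, minus strand: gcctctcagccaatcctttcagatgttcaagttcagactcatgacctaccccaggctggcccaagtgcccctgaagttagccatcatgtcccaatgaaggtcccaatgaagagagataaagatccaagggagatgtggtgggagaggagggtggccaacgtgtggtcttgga
F3, chr3:121723287-121723536, plus strand: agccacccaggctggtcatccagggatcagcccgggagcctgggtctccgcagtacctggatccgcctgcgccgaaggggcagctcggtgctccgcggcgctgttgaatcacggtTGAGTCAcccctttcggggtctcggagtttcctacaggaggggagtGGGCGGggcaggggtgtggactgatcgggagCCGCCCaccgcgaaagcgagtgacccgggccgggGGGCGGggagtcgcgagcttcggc

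An AP-1 match lay with its first base 69 bases before the Plaur start and 135 bases before the F3 start. Among all 32851 RefSeq windows of 250 upstream bases, 4.46% held this motif. GC boxes were found 3 times upstream of Plaur, 3 times upstream of F3 and 6 times upstream of the Serpine2 start used by RefSeq. Of the Serpine2 copies, 2 lie in exon bases that are not printed. In Plaur and in Serpine2, 1 pair of neighbouring copies shares a base. Among all windows, 32.7% held at least 1 GC box. The AP-1 matches overlapped no other motif searched. Tfpi, the fifth gene matched, has 2 windows that are not printed; each held 1 GC box, 1 of them also held a TATA box (TATAAA, in 12.4% of all windows), and neither held AP-1. The GLI motif GACCACCCA was in no window of these genes and in 0.225% of all windows. Serpinf1 held none of the 10 motifs searched, which also included a cAMP response element, a TATA box, TEAD, ETS, E-box, STAT and SMAD motifs. The upstream bases of Serpine2 were 78.8% G and C, those of F3 70.0%, of Plaur 59.6% and of Serpinf1 51.6%, where the median window had 52.4%. The motif search and these shares cover all 250 bases, of which 31 for Serpine2 and 78 for Serpinf1 are not printed. The annotation also places exons of noncoding genes within the stretches upstream of Serpinf1 and F3. These letters say nothing of whether a factor binds.

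Neither activator changed beyond the spread of its wells. Plau (ENSMUSG00000021822.3, chr14:20836660-20843385, plus strand) encodes urokinase. Its level was 13.6, 12.5 and 12.9 CPM in the libraries labelled WT and 14.7, 13.8 and 12.2 CPM in the libraries labelled KO. The lowest and the highest Plau value both belonged to libraries labelled KO, which enclosed those labelled WT. Its log2 fold change was 0.06 (SE 0.07, 95% interval -0.10 to 0.23, adjusted p = 0.482), so that a change of 1.5-fold in either direction lay outside the interval. Plat (ENSMUSG00000031538.6, chr8:22757727-22782844, plus strand), which encodes the tissue-type activator best known for its action on fibrin, had 105, 98.6 and 98.4 CPM against 101, 98.6 and 96.4 CPM. The groups overlapped for Plat as well. Its log2 fold change was -0.03 (SE 0.04, 95% interval -0.11 to 0.05, adjusted p = 0.478), and the sign turned under upper-quartile scaling (0.03) and total count scaling (0.0039), neither of which passed the test.

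The urokinase receptor did change. Plaur (ENSMUSG00000046223.10, chr7:24462484-24475968, plus strand) had 14.1, 12.2 and 11.1 CPM in the libraries labelled WT and 27.8, 27.3 and 25.1 CPM in the libraries labelled KO. Every library labelled KO lay well above the highest library labelled WT. The rise was 2.15-fold (log2 1.10, SE 0.08, 95% interval 0.94 to 1.27, adjusted p = 8.67e-08). The wells labelled WT spread more for this gene than for most, with a coefficient of variation of 12.4% where the median gene had 4.73%. Per kilobase of exon and within each library, the ratio of Plaur to Plau was 0.866 ± 0.0839 (SD, n = 3) in libraries labelled WT and 1.79 ± 0.0717 in libraries labelled KO. Per kilobase, the receptor transcript was thus below its ligand's in every library labelled WT and above it in every library labelled KO. In CPM, not divided by length, Plaur was above Plau in WT replicate 1 (14.1 against 13.6). It was below in WT replicates 2 (12.2 against 12.5) and 3 (11.1 against 12.9). The order with the WT label thus depends on the exon lengths used. The ratios were not tested.

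Both serpins rose by a similar factor from very different levels. Serpine2 (ENSMUSG00000026249.10, chr1:79794197-79861180, minus strand) encodes protease nexin-1, which inhibits thrombin as well as both plasminogen activators. Its counts were 64, 80 and 72 with the WT label and 669, 704 and 572 with the KO label. On the CPM scale these are 2.04, 2.39 and 2.26 against 18.9, 16.9 and 17.3. The lowest library labelled KO lay far above the highest labelled WT. The rise was 7.91-fold (log2 2.98, SE 0.09, 95% interval 2.79 to 3.18, adjusted p = 2.93e-11).

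Serpinf1 (ENSMUSG00000000753.15, chr11:75409769-75422701, minus strand) encodes pigment epithelium-derived factor, a secreted serpin that does not inhibit proteases and is best known for restraining vessel growth. Its level was 8.90, 8.45 and 9.27 CPM in the libraries labelled WT and 78.1, 73.1 and 72.8 CPM in the libraries labelled KO. The groups were far apart and each was tight, with coefficients of variation of 4.64% and 3.95%. The rise was 8.41-fold (log2 3.07, SE 0.05, 95% interval 2.96 to 3.18, adjusted p = 1.50e-13). Within a library, Serpinf1 stood 14.1 ± 1.48 times above Serpine2 per kilobase in libraries labelled WT and 14.8 ± 0.350 times in those labelled KO (SD, n = 3), and these ratios overlapped between the groups.

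The initiator of clotting and its inhibitor shifted by little. F3 (ENSMUSG00000028128.13, chr3:121723537-121735048, plus strand) had 82.9, 77.0 and 77.6 CPM in the libraries labelled WT and 92.0, 89.9 and 89.5 CPM in those labelled KO. The groups did not overlap, but the step between the nearest libraries was small beside the level. The change was 1.14-fold (log2 0.19, SE 0.04, 95% interval 0.11 to 0.27, adjusted p = 5.29e-04), which passed the p threshold and not the fold limit. Tfpi (ENSMUSG00000027082.15, chr2:84432855-84476775, minus strand), the inhibitor of the tissue factor complex, had 217, 236 and 232 CPM against 271, 282 and 284 CPM. It showed the same picture, groups apart at a modest distance. Its change was 1.22-fold (log2 0.29, SE 0.04, 95% interval 0.21 to 0.37, adjusted p = 1.68e-05), again under the fold limit. The ratio of Tfpi to F3 per kilobase, 1.34 ± 0.110 against 1.43 ± 0.0585 (SD, n = 3), overlapped between the groups.

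Thrombomodulin rose. Thbd (ENSMUSG00000074743.4, chr2:148404466-148408188, minus strand) lies in a single exon block and encodes the cofactor through which thrombin activates protein C. Its level was 83.8, 86.4 and 86.1 CPM in the libraries labelled WT and 203, 209 and 210 CPM in the libraries labelled KO. Its wells varied least of the 8 genes in the libraries labelled WT, by 1.67%, and the groups were widely apart. The rise was 2.43-fold (log2 1.28, SE 0.03, 95% interval 1.21 to 1.35, adjusted p = 4.06e-12). Per kilobase, Thbd was below F3 in every library labelled WT, with a ratio of 0.734 ± 0.0416, and above it in every library labelled KO, with a ratio of 1.56 ± 0.0523 (SD, n = 3). In CPM, not divided by length, Thbd was above F3 with the WT label too (83.8, 86.4 and 86.1 against 82.9, 77.0 and 77.6). Their order with the WT label thus depends on the exon lengths used.

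**Figure D2:**
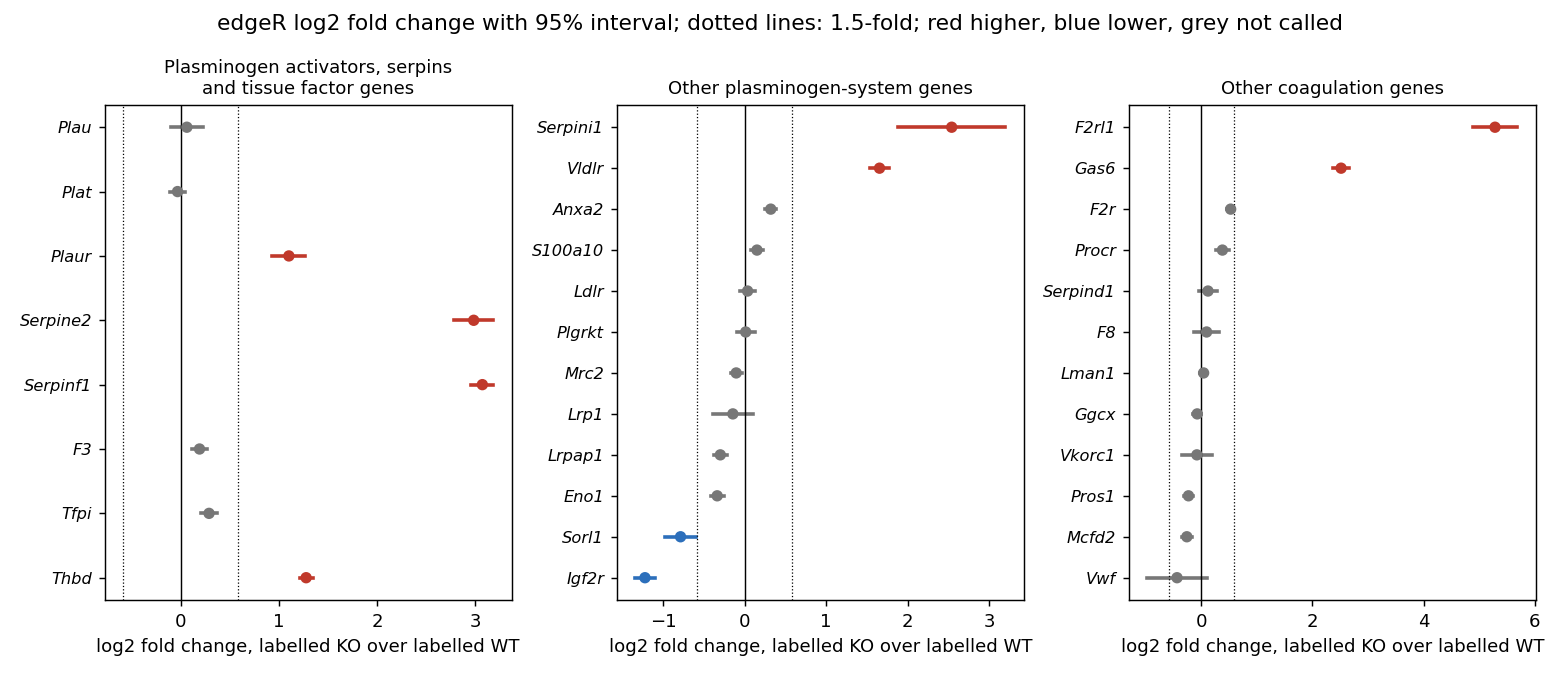
Log2 fold change of libraries labelled KO over libraries labelled WT (x axis) with 95% intervals for the 8 genes and for genes of the fibrinolysis and coagulation lists, from the fit over all genes, with the 1.5-fold limits marked. Serpinf1 (3.07) and Serpine2 (2.98) lie farthest right among the 8, and the intervals of Plau and Plat include 0.

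Levels between genes were compared as CPM per kilobase of exon. In libraries labelled WT the order from the top was Tfpi (41.8), F3 (31.3), Thbd (22.9), Plat (16.1), Plau (5.49), Plaur (4.76), Serpinf1 (3.76) and Serpine2 (0.269). Only Plau and Plaur were neighbours with overlapping libraries. In libraries labelled KO the order was Thbd (55.7), Tfpi (51.1), F3 (35.8), Serpinf1 (31.6), Plat (15.8), Plaur (10.2), Plau (5.73) and Serpine2 (2.14), with no overlapping neighbours. Thbd thus stood above Tfpi and F3 in one group and below both in the other, and Serpinf1 went from below Plau to above Plat. On this measure Serpine2 remained the lowest of the 8 in both groups. It stood at percentile 10.7 of all tested genes in libraries labelled WT and at percentile 32.1 in libraries labelled KO. The length used for Serpine2, the union of its annotated exons, was 8287 bases and the longest of the 8. A shorter transcript in these cells would raise its level per kilobase, so its rank and its ratios to other genes depend on that length. The order of other genes, such as Thbd against F3 and Plaur against Plau, depends on their lengths in the same way.

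**Figure D3:**
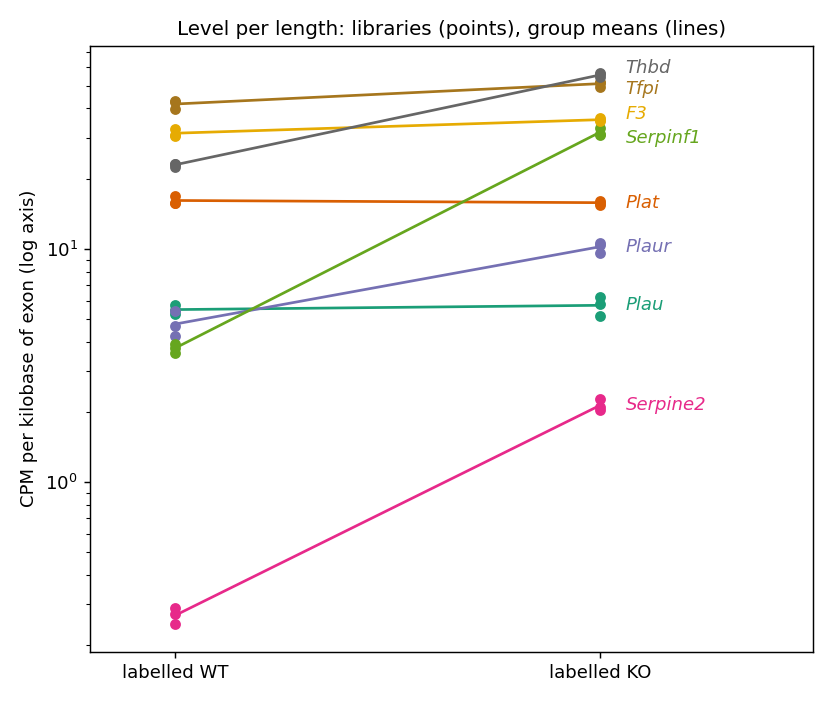
CPM per kilobase of exon (y axis, log scale) of the 8 genes in each library (points) by group (x axis), with lines joining group means. The lines of Thbd and Serpinf1 cross those of other genes, and the lines of Plat and Plau stay nearly level.

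The wider plasminogen system showed no shared direction. Of 21 listed partners, 13 had a row and all 13 were tested; 2 rose, 2 fell and 9 were not called, with a median log2 fold change of 0.01. Here and below, genes were looked for by symbol only, which 13666 of the 14831 rows carry. A gene said to have no row may thus be among the rows without a symbol. Plg, the gene of plasminogen itself, and the inhibitors Serpinb2 and Serpinf2 had no row under their symbols in the table used here. The genes that rose were Vldlr, an endocytic receptor that clears protease and serpin complexes (log2 1.65, SE 0.05, adjusted p = 5.95e-11), and Serpini1, which encodes neuroserpin, an inhibitor of the tissue-type activator (log2 2.54, SE 0.30, adjusted p = 1.23e-05). Serpini1 was scarce, at 4, 7 and 4 counts under the WT label against 36, 38 and 27 under the KO label. The genes that fell were Igf2r, which binds plasminogen and Plaur besides its growth factor and lysosomal enzyme ligands (log2 -1.22, SE 0.06, adjusted p = 1.42e-09), and the sorting receptor Sorl1 (log2 -0.78, SE 0.09, adjusted p = 6.80e-06).

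Ratios within a library set these transcripts against each other. Per kilobase, Serpine2 made up 0.0125 ± 0.00141 of the sum of Plau and Plat in libraries labelled WT and 0.0993 ± 0.00438 in libraries labelled KO (SD, n = 3). Plat exceeded Plau in every library, 2.94 ± 0.0554 times in those labelled WT and 2.77 ± 0.206 times in those labelled KO, and these values overlapped. An exact permutation test of 3 against 3 libraries cannot give a two-sided p below 0.1, so the ratios are given without one.

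**Figure D4:**
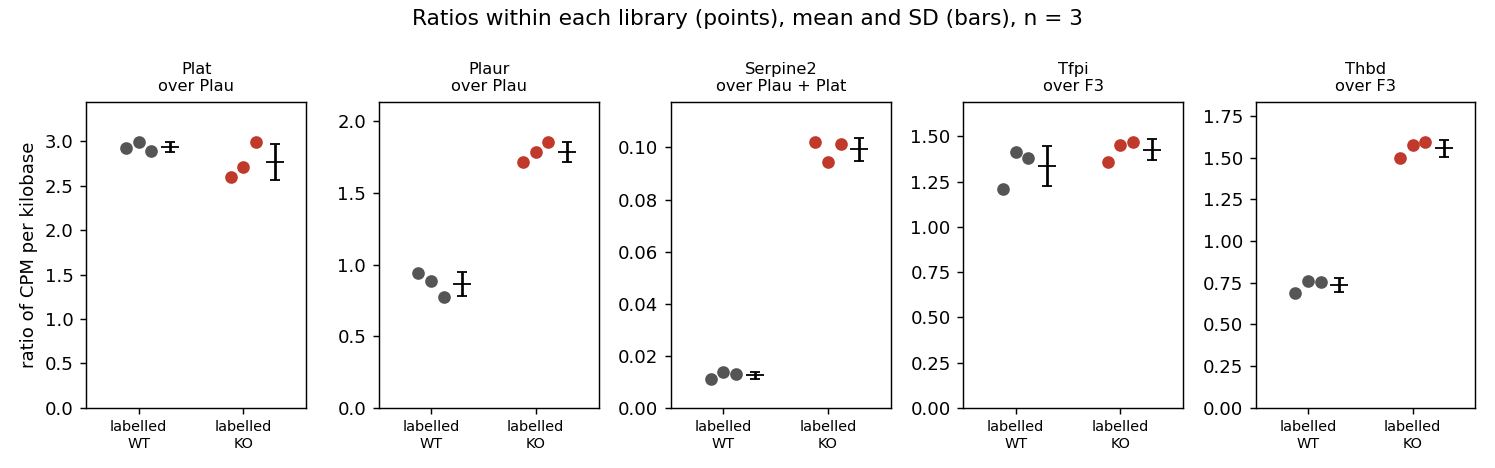
Ratios of CPM per kilobase of exon within each library (y axis, starting at 0, own scale for each ratio) for libraries labelled WT (grey) and labelled KO (red), with group means and SD as bars. Plat over Plau and Tfpi over F3 overlap between groups, and the other 3 ratios are higher in every library labelled KO.

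Among 31 listed partners of tissue factor coagulation and its control, 13 had a row and 12 were tested; 2 rose, 0 fell, and the median log2 fold change was 0.07. F2rl1, the protease-activated receptor that responds to trypsin-like proteases and the tissue factor complex, went from 7, 9 and 6 counts under the WT label to 287, 420 and 290 under the KO label (log2 5.29, SE 0.19, adjusted p = 1.26e-10). Gas6, a vitamin K dependent ligand of TAM receptor kinases related to protein S, rose by 2.52 on the log2 scale (SE 0.07, adjusted p = 9.51e-12). The thrombin receptor F2r (log2 0.53, adjusted p = 1.10e-08) and the protein C receptor Procr (log2 0.38, adjusted p = 4.25e-05) passed the p threshold below the fold limit as higher, and protein S (Pros1, log2 -0.23, adjusted p = 1.09e-04) and the secretory cargo receptor subunit Mcfd2 (log2 -0.26, adjusted p = 8.02e-05) did so as lower. The genes of prothrombin (F2), factors V, VII and X (F5, F7, F10) and protein C (Proc) had no row under these symbols.

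Other serpin genes moved both ways. Of 17 with a row, 15 were tested; 3 rose and 4 fell, with a median log2 fold change of 0.04. Upper-quartile and total count scaling each gave 5 higher and 3 lower. Serping1, the C1 inhibitor, had 7, 6 and 10 counts against 71, 97 and 76 (log2 3.20, adjusted p = 1.19e-07). Serpinb8 rose by 0.61 on the log2 scale (adjusted p = 7.52e-06). Serpina3g fell by 1.32, Serpina9 by 1.31, Serpinb6b by 0.93 and Serpinb9b by 0.60. Serpina9 was scarce, with 11, 16 and 17 counts against 7, 6 and 7 (SE 0.34, adjusted p = 0.00521). Some of these 4 have close relatives in mouse serpin clusters, whose reads may be shared. Sharing of reads was not measured, and the values of all 4 are uncertain.

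Marker genes of other cell types moved with the labels. Thbd is among the genes also known from mesothelial cells. Of 8 mesothelial markers 7 had a row and all 7 rose; their summed level was 24.5 to 27.7 CPM in libraries labelled WT and 357 to 362 CPM in libraries labelled KO. Msln, the gene of mesothelin, had 77, 91 and 62 counts against 5949, 6904 and 5392. The sum of 5 epithelial markers with a row, of 10 listed, was 13.3 to 15.8 CPM against 40.8 to 42.0 CPM. Of the 4 tested, 3 were called higher and 0 lower. Krt7 had 153, 144 and 126 counts with the WT label and 811, 975 and 760 with the KO label. Cela1 had means of 8.04 and 14.7 CPM. Krt8 was scarce, with 1, 0 and 2 counts with the WT label and 7, 9 and 12 with the KO label, and Epcam, Krt18 and Krt19 had no row.

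Thbd and Tfpi are also known from endothelium, and F3 and Plaur from macrophages. Of 10 endothelial markers only Egfl7 and Flt1 had a row, summing to 1.08 to 2.03 CPM in libraries labelled WT and 5.69 to 6.55 CPM in libraries labelled KO; Pecam1, Cdh5, Kdr and Tek had none. Of 10 macrophage markers 4 had a row and none was called, at 55.6 to 60.8 CPM against 52.4 to 54.1 CPM, and Ptprc, Adgre1 and Itgam had no row.

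Of 12 fibroblast markers 10 had a row, with sums of 46629 to 49203 CPM against 38732 to 40396 CPM. Col1a1, Col1a2 and Vim were abundant in both groups, and Acta2 had means of 1893 and 1903 CPM. Of the 9 tested, Dcn, Col3a1, Pdgfra and Pdgfrb fell in libraries labelled KO and S100a4 rose, from 77, 85 and 62 counts to 253, 326 and 235. Thy1 had 4, 1 and 0 counts with the WT label and 19, 15 and 9 with the KO label, and Pdpn and Fap had no row. The part of these marker differences in the rise of Plaur, Serpine2, Serpinf1 and Thbd was not tested.

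Profiles were compared, and genes within a distance counted, only among tested genes that have a symbol, leaving out the 8 themselves. For each of the 8, the gene with the most similar profile over the 6 libraries was found by the root mean square distance between centred log2 CPM values. For Serpinf1 it was AU021092 (distance 0.0909) and for Serpine2 it was Radil (0.0590), and each was the 1 gene within 0.1. AU021092 and Radil were scarce in libraries labelled WT, with means of 0.962 and 0.320 CPM. Their log2 fold changes were 3.12 and 3.02, and shared control was not tested. The profile nearest to Thbd was that of Cdh3 (0.0194), with 60 genes within 0.1, and the profile nearest to Plaur was that of Hs3st1 (0.0325), with 56. Plat (Gemin5, 0.00895), F3 (Hnrnpl, 0.0118), Tfpi (Gab1, 0.0175) and Plau (Anapc13, 0.0213) each had between 1785 and 4523 genes within 0.1, so their nearest gene is 1 of many. With log2(CPM + 0.1) in place of the deposited values the nearest gene was the same for 5 of the 8 and became Klf5 for Plaur, Map1a for Serpine2 and Pdzk1ip1 for Serpinf1.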

How the data were processed

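RNA was measured by poly-A RNAseq in 3 libraries labelled WT and 3 labelled KO, grouped from the sample titles and genotypes. The authors deposited read counts per gene, not normalized, with genes of few reads absent (every row sums to at least 20), and a second table of log2 CPM values from voom. The submitters' processing notes name STAR 2.7.2b, featureCounts, limma and GRCm38.p6; whether counting used strand is not given in the sources used here. Exons of the 8 genes overlap no exon of any other annotated gene.

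The counts were tested with edgeR 4.0.16 (R 4.3.3; filterByExpr, TMM factors of 0.988 to 1.02, quasi-likelihood F test, Benjamini-Hochberg over 14289 genes), and called at an adjusted p below 0.05 and at least 1.5-fold. The script was tested on simulated data. Replicate pairs differed by more than sampling noise (chi-square per degree of freedom 2.50 to 7.74), so all libraries were kept. Labels share no replicate numbers. Lengths are the union of annotated GRCm38 exons. DESeq2 1.42.0, limma 3.58.1, other scalings, filters and fold limits, and leaving out each library were alternatives.

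The genes and lists were chosen with earlier results of these data known, including the fold changes in the study's supplement. The text names the 8 genes, the called genes of each list (up to 5 a direction), the nearest gene of each of the 8, and Gli2 and Gli3. A further gene of the naming rule is not reported here. F2r, Procr, Pros1 and Mcfd2, the marker genes, and list genes without a row were named after their values were seen. The motif set was chosen after the promoters of the 8 genes had been looked at, and an NF-kB and a CArG motif that were also looked for are not counted here. The deposited log2 CPM values were adopted for nearest profiles after log2(CPM + 0.1) had been tried.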

Additional observations from a re-analysis of the deposited data

How the results depend on the processing

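The call of 4 of the 8 genes, all higher, was the same under every alternative but the one without a fold limit, where 6 passed; Plaur, Serpine2, Serpinf1 and Thbd were each called in all 16 alternatives, with log2 fold changes of 1.02 to 1.20, 2.93 to 3.04, 3.04 to 3.13 and 1.26 to 1.34. F3 and Tfpi stayed under the fold limit with adjusted p of at most 0.00604 and 1.91e-04 wherever there was one. Plat, which was not called under any alternative, changed sign under upper-quartile scaling (0.0261, adjusted p = 0.560) and total count scaling (0.00392, adjusted p = 0.934), which also moved the median of all genes to 0.0588 and 0.0367. Without a fold limit the calls were 10 of the fibrinolysis list in place of 4, 6 of the coagulation list in place of 2, and 8391 of all genes in place of 2531; at 2-fold or more they were 4 of the other serpins in place of 7, and 1456 of all genes. A minimum of 10 counts in every library, which removes scarce genes, left 1 coagulation partner (F2rl1 is not tested) and 4 other serpins. No paired analysis was possible because the labels carry no shared replicate numbers. With 3 wells per group and 0.0720 to 0.0957 CPM as the value of 3 counts, genes of a few counts such as Serpini1, Serping1 and Serpina9 are the least precise.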
